A study of Mus musculus with 4 samples.

Results

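The nuclear receptor family was described in primary Leydig cells, the androgen-producing cells between the seminiferous tubules of the testis. Members were 46 receptor genes chosen by symbol, each found as 1 row of the 55812 features in the deposited count table through its Ensembl identifier, and all 46 were protein-coding. RNA sequencing was carried out on cells of 6-month-old mice that received either Trps1 siRNA, a small interfering RNA against the transcriptional repressor Trps1, or Negative siRNA, with 2 samples in each group. The labels name no strain, no siRNA sequence and no time after transfection. They also leave out whether a group's 2 samples were independent preparations, so every p-value here reflects sample-to-sample spread that could be purely technical. The libraries held 17844125 and 21597187 counted reads with Trps1 siRNA and 20116799 and 25852898 with Negative siRNA.

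Nuclear receptors are transcription factors that bind DNA through a zinc finger domain, and many are switched by a lipid-soluble ligand such as a steroid, a thyroid hormone, a retinoid, an oxysterol or a fatty acid. Others, called orphan receptors, have no established ligand or act without one. In Leydig cells the orphan receptor SF-1, encoded by Nr5a1, drives genes of steroid synthesis, NR4A receptors respond to luteinising hormone, and DAX-1 and SHP restrain this programme. Bound receptors recruit coactivators or corepressors, and receptors of the retinoic acid, thyroid hormone, vitamin D, PPAR, LXR and FXR kinds pair with an RXR partner.

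Trps1 itself had 23.5 and 30.1 CPM (reads scaled to a common library size) with Trps1 siRNA, against 38.0 and 42.2 CPM with Negative siRNA, so its transcript was lowered but not removed (log2 fold change -0.58 ± 0.10, standard error; edgeR adjusted p = 0.000351). Leydig markers were abundant in every library. The summed level of 8 of them was 5461 and 5876 CPM with Trps1 siRNA and 3634 and 3882 CPM with Negative siRNA. Most of it came from Cyp11a1, at 3413 and 3652 CPM with Trps1 siRNA and 2409 and 2612 CPM with Negative siRNA. Of the 8 markers 6 rose, while Star and Insl3 did not pass the test, at log2 fold changes of -0.09 and 0.02. All 8 but Hsd17b3 are also in the list of SF-1 targets below. The cultures also held macrophage RNA, with 13 markers summing to 2745 and 2181 CPM with Trps1 siRNA and 3248 and 3196 CPM with Negative siRNA. Of these 13 markers 9 fell, none rose and none was at 0. In such bulk samples fewer cells of a type and less RNA per cell cannot be told apart. Of 6 smooth muscle markers 4 were tested and 2 fell, with sums of 58.9 and 62.7 CPM with Trps1 siRNA and 94.0 and 95 CPM with Negative siRNA. Sertoli and endothelial markers each summed to between 20.9 and 36.8 CPM in all libraries, and germ cell markers to at most 2.39 CPM, with Tnp1 at 0.

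Of the 46 receptors, 30 were expressed, counted as a mean of at least 1 CPM over the 4 libraries, and 26 had at least 5 CPM. The other 16 lay below 1 CPM, and 5 of these, Nr2e1, Nr2e3, Esr2, Nr5a2 and Hnf4g, had no read in any library, which allows a level of up to 0.139 to 0.168 CPM with Trps1 siRNA and 0.116 to 0.149 CPM with Negative siRNA (3 reads per library, counting error only). The receptors without reads include oestrogen receptor beta (Esr2) and LRH-1 (Nr5a2), the close relative of SF-1.

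Levels of different receptors were compared as TPM, which divides reads by exon length before scaling. Nr5a1 (SF-1) stood far above the others, with 522 and 544 TPM with Trps1 siRNA and 389 and 400 TPM with Negative siRNA. Next came the oxysterol receptor LXR beta (Nr1h2), with a mean of 107 TPM over the 4 libraries, and RXR alpha (Rxra), the common dimer partner, with 90.8 TPM. These levels did not overlap across libraries, since Nr1h2 had at least 101.5 TPM and Rxra at most 94.2 TPM. COUP-TFII (Nr2f2), a receptor that marks Leydig progenitors as well as adult Leydig cells, averaged 51.1 TPM, the heme-binding clock repressor REV-ERB alpha (Nr1d1) 48.4 TPM, RAR alpha (Rara) 44.5 TPM and the orphan EAR2 (Nr2f6) 42.6 TPM. Those 4 could not be ranked, because their library values overlapped. Rxrb averaged 39.2 TPM, within the range of Nr2f6, and oestrogen receptor alpha (Esr1) 33.9 TPM. Each of the subfamilies NR0, NR1, NR2, NR3, NR4, NR5 and NR6 had an expressed member, as the plot of levels by library shows. For NR0 and NR4 these included SHP (Nr0b2) and Nr4a1, with means of 16.5 and 15.9 TPM. The NR6 member Nr6a1 was low, at 0.661 TPM (2.30 CPM).

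**Figure D1:**
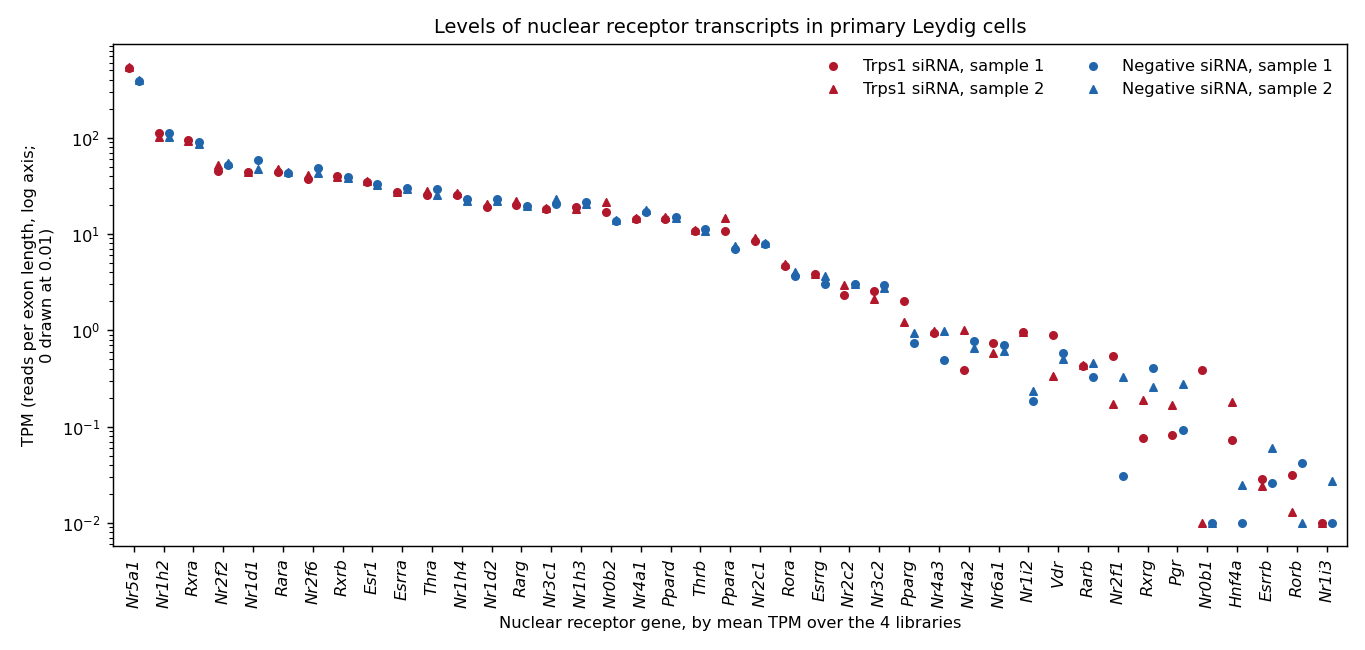
Level of each nuclear receptor with at least 1 read, in TPM on a log axis, for 2 Trps1 siRNA libraries (red) and 2 Negative siRNA libraries (blue), in order of the mean. Nr5a1 lies at 389 to 544 TPM, and Nr1h2 and Rxra, next in order, average 107 and 90.8 TPM.

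As a share of the summed TPM of all 46 receptors, Nr5a1 made up 42.7% and 43.0% with Trps1 siRNA, against 34.7% and 36.4% with Negative siRNA. Both Trps1 siRNA libraries lay above both Negative siRNA libraries, and an exact permutation test of 2 against 2 cannot go below p = 0.33, the value it gave (two-sided). The remaining receptors summed to 702 and 720 TPM with Trps1 siRNA and to 733 and 700 TPM with Negative siRNA, and these groups overlapped.

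Between the groups, 34 of the 46 receptors had enough reads for the test, and 3 rose while 1 fell with Trps1 siRNA (edgeR quasi-likelihood test, Benjamini-Hochberg adjusted p under 0.05 over 14701 genes). Those that rose were Nr5a1, Ppara and Nr1i2, and the one that fell was the glucocorticoid receptor gene Nr3c1. The share of tested receptors called was 11.8%, and over all tested genes it was 11.2%, with 5.24% higher and 6.0% lower, so receptors were called about as often as genes in general. Nr1i2 passed the filter on low counts solely through the Trps1 siRNA group, where it was higher. Its call is therefore not independent of the filter and supports nothing. Without Nr1i2, 3 of 33 tested receptors were called, or 9.09%. Without adjustment 12 of the 34 had p under 0.05, 6 higher and 6 lower, or 35.3% against 23.9% of all tested genes. Groups did not overlap in 24 of the 34 receptors, or 70.6%, against 52.2% of all tested genes. Both of these shares include Nr1i2, so they are not independent of the filter either, and no conclusion is drawn from them. The median log2 fold change was 0.045 for the tested receptors and 0.002 for all tested genes.

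**Figure D2:**
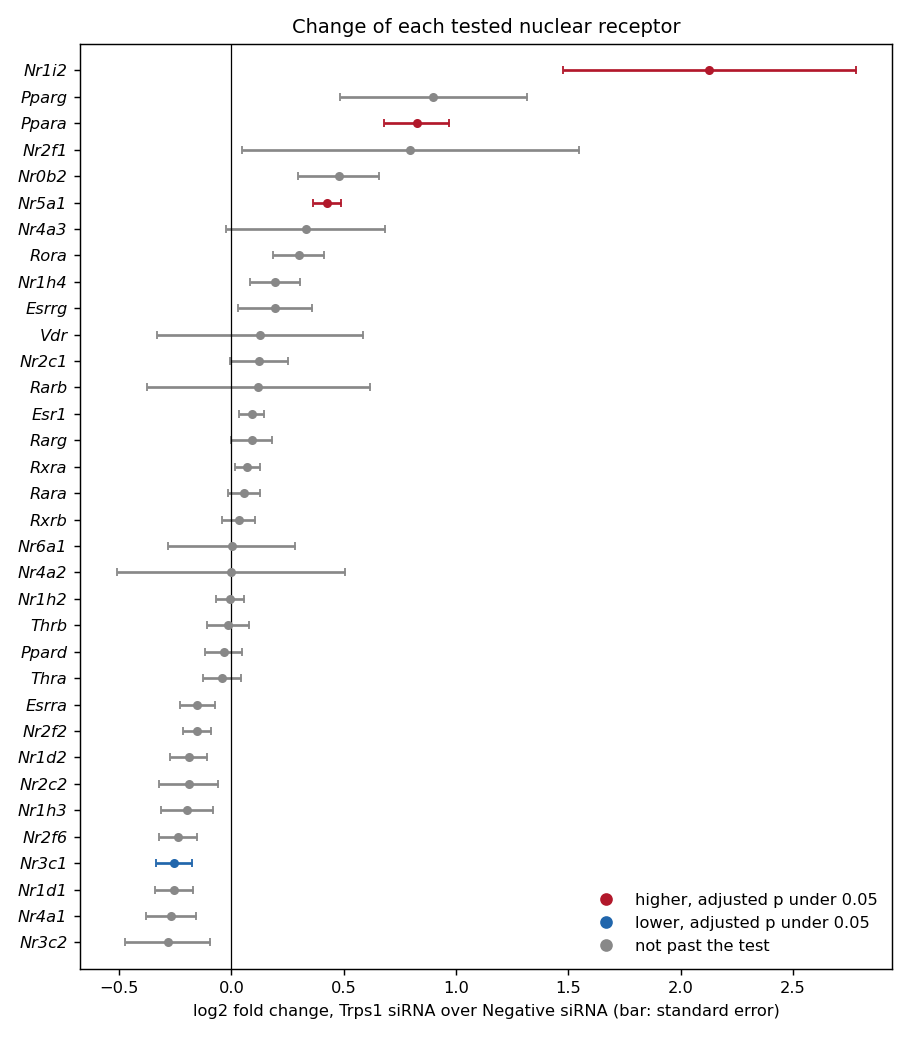
Log2 fold change of each of the 34 tested receptors, Trps1 siRNA over Negative siRNA, with the standard error as a bar. Red marks Nr5a1, Ppara and Nr1i2 (higher) and blue marks Nr3c1 (lower), while grey receptors did not pass the test, and bars are widest for receptors with few reads such as Nr2f1 and Nr1i2.

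Nr5a1 (ENSMUSG00000026751, chromosome 2, 38692656 to 38714542, minus strand of GRCm38) was the most abundant, with 712 and 733 CPM with Trps1 siRNA, against 523 and 553 CPM with Negative siRNA, from 12726, 15939, 10529 and 14173 reads. Both Trps1 siRNA libraries were higher than both Negative siRNA libraries, and the means were 722 ± 14.5 and 538 ± 21.1 CPM (SD, n = 2 each). Leydig marker sums were also higher and macrophage marker sums lower with Trps1 siRNA, as given above. The part of the cell mixture in the Nr5a1 difference was not tested. The log2 fold change was 0.42 ± 0.06 (1.34-fold, edgeR adjusted p = 2.21e-05), the call held in all 12 alternative fits with values of 0.38 to 0.46, and Nr5a1 was the only one of the 46 receptors in the authors' deposited table of 780 genes, at 0.42 with an adjusted p of 4.7e-09.

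The other members of its circuit were much less abundant. SHP (Nr0b2), an atypical receptor without a DNA-binding domain that represses other receptors, had 6.16 and 7.77 CPM with Trps1 siRNA and 4.92 and 5.11 CPM with Negative siRNA. The groups did not overlap, but its log2 fold change of 0.48 ± 0.18 did not pass the test (edgeR adjusted p = 0.0917), although it did without Trps1 siRNA sample 1 (adjusted p = 0.0495). DAX-1 (Nr0b1), the related repressor of SF-1, had 4 reads in Trps1 siRNA sample 1 and no read in the other libraries. NUR77 (Nr4a1), which luteinising hormone induces in Leydig cells, had 16 and 16.4 CPM with Trps1 siRNA and 18.9 and 20.1 CPM with Negative siRNA (log2 fold change -0.27 ± 0.11, edgeR adjusted p = 0.132). Its relatives Nr4a2 and Nr4a3 had 0.504 to 1.91 CPM in all libraries, with overlapping groups and log2 fold changes of -0.001 ± 0.51 and 0.33 ± 0.35.

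Of 13 genes listed as SF-1 targets of steroid synthesis, 11 were tested, 7 rose and none fell, with a median log2 fold change of 0.43 against 0.002 over all tested genes. This list has been described from these samples before and is not independent of that description. It holds all of the Leydig markers above but Hsd17b3, so the rises in the marker and target lists are not separate results. Reads of Hsd3b1 and its paralog Hsd3b6 may not be fully told apart, and this was not tested. The 4 with the smallest p were Cyp17a1, Lhcgr, Hsd3b1 and Fdxr. Cyp17a1, which makes androgen precursors, had 107 and 98.8 CPM with Trps1 siRNA and 16.5 and 15.2 CPM with Negative siRNA (log2 fold change 2.70 ± 0.08). Lhcgr, the luteinising hormone receptor, had 79.9 and 83.3 CPM with Trps1 siRNA and 40.5 and 34.6 CPM with Negative siRNA. Hsd3b1, which makes progesterone, had a log2 fold change of 1.42 ± 0.08, and that of Fdxr, which passes electrons to mitochondrial steroid hydroxylases, was 0.67 ± 0.06. Star, Fdx1, Insl3 and Por did not pass the test, at -0.09, 0.11, 0.02 and -0.16. The log2 fold change of Nr5a1, 0.42, was smaller than those of Cyp17a1, Lhcgr, Hsd3b1 and Fdxr, which were picked for their small p. It lay near the list median of 0.43. The other targets that rose were Cyp11a1, Hsd3b6 and Scarb1, at 0.49, 0.43 and 0.34. Whether Nr5a1 acted on any of these genes was not tested.

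Among the lipid, bile acid and xenobiotic sensors, 7 of 8 were tested, 2 rose and none fell, or 1 rose when Nr1i2 is set aside. PPAR alpha (Ppara, ENSMUSG00000022383, chromosome 15, 85734983 to 85802819, plus strand), the fatty acid receptor that drives fatty acid oxidation, had 13.3 and 18.02 CPM with Trps1 siRNA, against 8.45 and 9.29 CPM with Negative siRNA, from 238, 392, 170 and 238 reads. Both Trps1 siRNA libraries were higher, sample 2 the more so, and the log2 fold change was 0.82 ± 0.15 (1.77-fold, edgeR adjusted p = 0.000374). The call held in all 12 alternative fits, with values between 0.58 without Trps1 siRNA sample 2 (adjusted p = 0.0467) and 1.02 without sample 1. PPAR delta (Ppard) had 34.9 and 35.9 CPM with Trps1 siRNA and 36.2 CPM in both Negative siRNA libraries (log2 fold change -0.03, 95% interval -0.20 to 0.13). Per length, Ppara reached 12.8 TPM and Ppard 14.7 TPM with Trps1 siRNA, against 7.18 and 15.0 TPM with Negative siRNA. PPAR gamma (Pparg), the fat cell regulator, had 1.90 and 1.15 CPM with Trps1 siRNA and 0.696 and 0.898 CPM with Negative siRNA, and its log2 fold change of 0.90 ± 0.42 did not pass the test (edgeR adjusted p = 0.185).

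PXR (Nr1i2, ENSMUSG00000022809, chromosome 16, 38248323 to 38294824, minus strand), a sensor of drugs and other foreign compounds known mainly from liver and gut, counted 14 and 17 reads with Trps1 siRNA, against 3 and 5 reads with Negative siRNA. Levels were thus below 1 CPM throughout, at 0.783 and 0.781 CPM with Trps1 siRNA and 0.149 and 0.195 CPM with Negative siRNA. The ratio of the pooled rates was 4.47, with an exact 95% interval of 2.01 to 11.3 that covers counting error only. The fitted log2 fold change of 2.13 ± 0.65 (edgeR adjusted p = 0.033) is a description, because Nr1i2 passed the filter only through the libraries where it was higher. Leaving out any one library ended the call, with adjusted p-values of 0.168 and 0.258 without Trps1 siRNA samples 1 and 2, and 0.167 and 0.151 without Negative siRNA samples 1 and 2.

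FXR (Nr1h4), the bile acid receptor, was expressed with 18.6 and 19.3 CPM with Trps1 siRNA and 16.8 and 16.4 CPM with Negative siRNA (log2 fold change 0.19 ± 0.11, edgeR adjusted p = 0.301). LXR beta (Nr1h2) had 122 and 108 CPM with Trps1 siRNA and 119 and 112 CPM with Negative siRNA, with a log2 fold change of -0.006 (95% interval -0.14 to 0.12). LXR alpha (Nr1h3), which macrophages also express, had 15.3 and 14.5 CPM with Trps1 siRNA and 17.3 and 16.9 CPM with Negative siRNA (log2 fold change -0.20 ± 0.12, edgeR adjusted p = 0.322), beside macrophage marker sums of 2745 and 2181 CPM with Trps1 siRNA and 3248 and 3196 CPM with Negative siRNA, whose part in this was not tested. CAR (Nr1i3), the other xenobiotic sensor, had 1 read in all libraries together, in Negative siRNA sample 2.

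Of 12 PPAR targets 4 rose and none fell, while 8 missed the threshold, with a median log2 fold change of 0.06. Among those that rose were the acyl-CoA dehydrogenases Acadl and Acadm, at 0.34 ± 0.06 and 0.29 ± 0.06 on the log2 scale (edgeR adjusted p = 0.000235 and 0.000931). Acadl had 334 and 337 CPM with Trps1 siRNA and 268 and 263 CPM with Negative siRNA, and both calls held in all 12 alternative fits. The targets Cpt1a, Pdk4, Plin2 and Angptl4 had log2 fold changes of 0.10, 0.04, -0.06 and -0.006. Of 10 LXR targets 1 rose and 3 fell. Abca1, the cholesterol exporter, had a log2 fold change of 0.24 ± 0.07, lost without Trps1 siRNA sample 1 or 2 (adjusted p = 0.0505 and 0.414), without Negative siRNA sample 1 (0.477), with DESeq2 (0.42) and with no robust estimation (0.0518). The phospholipid transfer protein Pltp was the clearest of those that fell (-0.58 ± 0.10, edgeR adjusted p = 0.000165), and it shares exon sequence with Ctsa on the opposite strand. Scd2 and Apoe fell by 0.24 and 0.20 on the log2 scale. The call of Scd2 was lost without Negative siRNA sample 2 (adjusted p = 0.141), and that of Apoe without Negative siRNA sample 1 or 2 (adjusted p = 0.271 and 0.0773) or Trps1 siRNA sample 2 (adjusted p = 0.0514). Macrophages also express Apoe and Pltp, and 9 of the 13 macrophage markers fell, with a median log2 fold change of -0.449 and the sums given above, and their part in this was not tested.

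**Figure D3:**
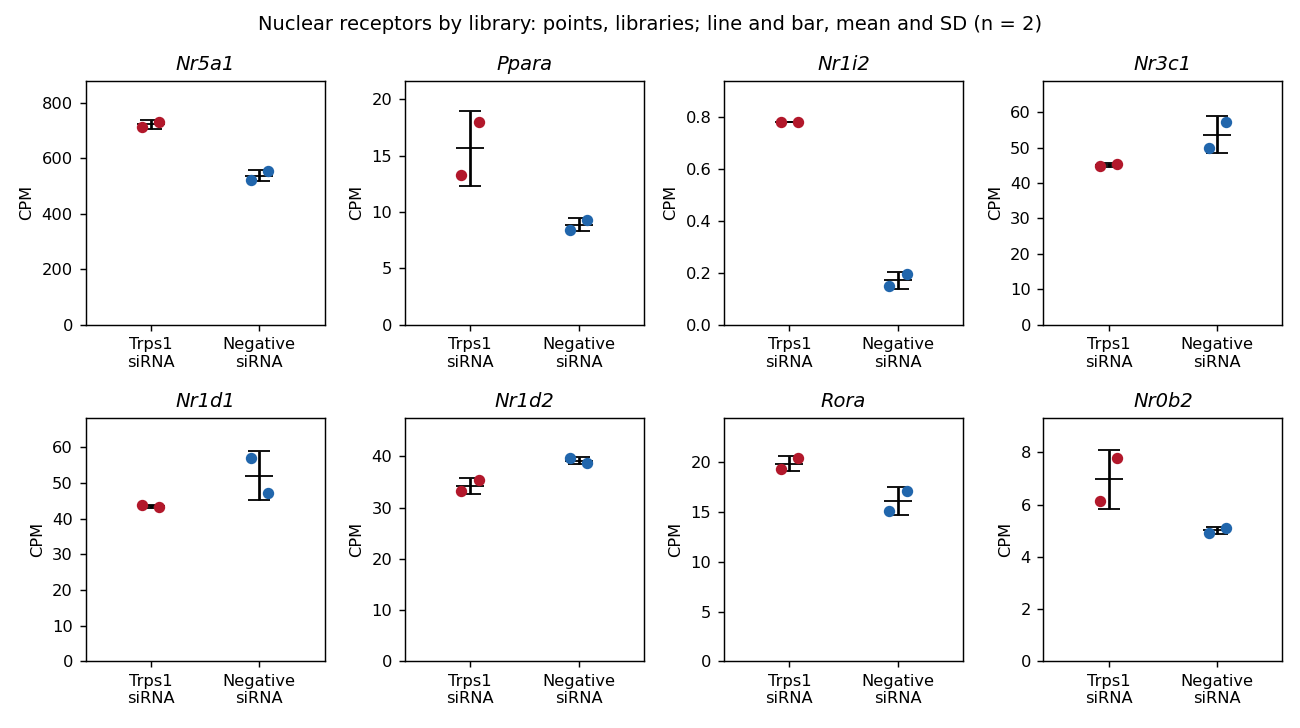
CPM of 8 receptors in each library (points), with the mean and SD of 2 libraries per group, Trps1 siRNA left and Negative siRNA right, each axis starting at 0. Nr5a1, Ppara and Nr1i2 lie higher and Nr3c1 lower with Trps1 siRNA, while Nr1d1, Nr1d2, Rora and Nr0b2 did not pass the test although their groups do not overlap.

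Promoter windows from RefSeq (GRCm38.p6, 250 bases before to 50 after a transcript start, read 5′ to 3′ on the gene's strand) were found for 42 of the 46 receptors, with 63 windows in all, and for Nr5a1, Nr3c1, Thra and Hnf4g none was used here. They were searched on both strands for the letters AGATAA or TGATAA, and likewise AGATAG or TGATAG, which GATA-type zinc fingers such as that of Trps1 recognise, and for AGGTCA, the half-site that most nuclear receptors bind. The windows of Ppara and Nr1i2 are shown because both genes were called higher, although the Nr1i2 call was not independent of the filter. That of SHP (Nr0b2), which did not pass the test, is shown as an example of a window with GATA matches, which stand in capitals. Windows of Nr2c1, Nr6a1 and Nr5a2 hold as many matches or more.
Ppara, chr15:85735526-85735825, plus strand: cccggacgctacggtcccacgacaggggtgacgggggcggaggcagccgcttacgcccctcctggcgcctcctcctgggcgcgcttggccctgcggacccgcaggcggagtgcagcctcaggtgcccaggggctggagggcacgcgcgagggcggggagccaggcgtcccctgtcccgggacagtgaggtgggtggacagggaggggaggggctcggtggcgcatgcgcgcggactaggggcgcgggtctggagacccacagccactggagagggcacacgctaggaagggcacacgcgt
Nr1i2, chr16:38294775-38295074, minus strand: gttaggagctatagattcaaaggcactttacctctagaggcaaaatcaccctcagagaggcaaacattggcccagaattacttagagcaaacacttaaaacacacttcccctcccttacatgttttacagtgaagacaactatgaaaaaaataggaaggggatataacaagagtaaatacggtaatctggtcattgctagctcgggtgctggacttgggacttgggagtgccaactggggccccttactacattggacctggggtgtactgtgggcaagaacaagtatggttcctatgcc
Nr0b2, chr4:133553126-133553425, plus strand: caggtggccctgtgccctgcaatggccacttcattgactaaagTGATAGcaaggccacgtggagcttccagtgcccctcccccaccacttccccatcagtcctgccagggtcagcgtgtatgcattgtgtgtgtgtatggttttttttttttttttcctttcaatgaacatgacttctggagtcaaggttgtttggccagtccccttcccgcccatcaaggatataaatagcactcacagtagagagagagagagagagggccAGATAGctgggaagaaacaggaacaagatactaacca
Neither the Ppara nor the Nr1i2 window held any of these letters, whereas that of Nr0b2 held TGATAG starting 207 bases before the start and AGATAG downstream of it. GATA letters occurred in 15 of the 63 receptor windows, or 23.8%, against 29.8% of 32851 windows of all genes. The half-site occurred in 12 receptor windows, or 19.0%, against 16.3% of all windows. The Ppara window was rich in CpG, with 30 CG pairs and 74.7% G and C, and that of Nr1i2 had 2 CG pairs and 45.3%, where the medians over all windows were 7 CG pairs and 52.7%. A match describes letters, and no match says only that these letters are not in the window.

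Of the 5 steroid hormone receptors listed, 3 were expressed and 1 fell. The glucocorticoid receptor gene Nr3c1 (ENSMUSG00000024431, chromosome 18, 39410545 to 39519421, minus strand) was at 44.7 and 45.4 CPM with Trps1 siRNA, against 50 and 57.3 CPM with Negative siRNA, from 799, 987, 1006 and 1468 reads. Both Trps1 siRNA libraries were lower, and Negative siRNA sample 2 was the highest. The log2 fold change was -0.25 ± 0.08 (0.838-fold, edgeR adjusted p = 0.0372), and the call held in 5 of 12 alternative fits. It was lost without Trps1 siRNA sample 1 (adjusted p = 0.108) or 2 (0.131) and without Negative siRNA sample 2, where the log2 fold change was -0.15 (adjusted p = 0.462), and DESeq2 gave an adjusted p of 0.176. Library totals alone, voom and no robust estimation gave 0.0553, 0.054 and 0.0542. Macrophages express Nr3c1 too, and the part of their lower marker sums was not tested.

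Oestrogen receptor alpha (Esr1) had 151 and 155 CPM with Trps1 siRNA and 143 and 144 CPM with Negative siRNA, and although the groups did not overlap, its log2 fold change of 0.09 (95% interval -0.02 to 0.20) did not pass the test. The mineralocorticoid receptor (Nr3c2), which binds aldosterone and corticosterone, had 5.32 and 4.37 CPM with Trps1 siRNA and 6.01 and 5.74 CPM with Negative siRNA (log2 fold change -0.28 ± 0.19, edgeR adjusted p = 0.388). The progesterone receptor (Pgr) had 4 and 10 reads with Trps1 siRNA and 5 and 20 with Negative siRNA, too few for the test.

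Of 10 glucocorticoid receptor targets 9 were tested, 1 rose and 2 fell, with a median log2 fold change of 0.04. The metallothionein Mt1 fell by 0.41 on the log2 scale, with 1298 and 1259 CPM with Trps1 siRNA and 1634 and 1763 CPM with Negative siRNA (edgeR adjusted p = 2.83e-05). The phosphatase gene Dusp1 fell by 0.22, shares exon sequence with Ergic1 on the opposite strand, and lost its call without Trps1 siRNA sample 2 or Negative siRNA sample 1 (adjusted p = 0.125 and 0.249). Zbtb16, a zinc finger factor, rose by 0.32, a call lost without Trps1 siRNA sample 2 (log2 fold change 0.12, adjusted p = 0.636) or Negative siRNA sample 2 (adjusted p = 0.147), with DESeq2 (0.177), with voom (0.0615) and with no robust estimation (0.0628). The chaperone partner Fkbp5, a sensitive glucocorticoid target, had 644 and 611 CPM with Trps1 siRNA and 638 and 604 CPM with Negative siRNA, a log2 fold change of 0.015, and Tsc22d3 one of 0.04. For the oestrogen and vitamin D receptors, 1 of 4 targets was tested. It was the oestrogen target Greb1, which rose by 0.21 on the log2 scale, a call lost without Trps1 siRNA sample 2 (adjusted p = 0.40) or Negative siRNA sample 1 or 2 (adjusted p = 0.0712 and 0.204), with DESeq2 (0.0826) and with no robust estimation (0.0578).

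The REV-ERB repressors and the ROR activators compete for the same DNA elements in clock genes. REV-ERB alpha (Nr1d1) had 43.8 and 43.2 CPM with Trps1 siRNA and 56.9 and 47.2 CPM with Negative siRNA, and its log2 fold change of -0.26 ± 0.09 lay just outside the test (edgeR adjusted p = 0.0529). Without Negative siRNA sample 1, the highest library, it was -0.12 (adjusted p = 0.595), and without Negative siRNA sample 2 it was -0.39 (adjusted p = 0.00333). REV-ERB beta (Nr1d2) had 33.2 and 35.4 CPM with Trps1 siRNA and 39.6 and 38.7 CPM with Negative siRNA (-0.19 ± 0.08, edgeR adjusted p = 0.151). ROR alpha (Rora) had 19.4 and 20.4 CPM with Trps1 siRNA and 15.1 and 17.1 CPM with Negative siRNA (0.30 ± 0.11, edgeR adjusted p = 0.0944). In these 3 the groups did not overlap, with values lower for both REV-ERB genes and higher for Rora with Trps1 siRNA, and none passed the test in the main fit. Nr1d1 was called lower without the low-count filter, with a mean of at least 5 CPM and with the replicate block. Whether it was called thus depended on the filter. Rorb had 6 reads in all.

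Of 14 clock genes listed with these receptors, 3 rose and 2 fell, with a median log2 fold change of 0.085. Whether REV-ERB or ROR proteins act on each listed gene was not tested. Hlf, a transcription factor of the clock output, rose by 1.005 on the log2 scale, with 6.94 and 6.67 CPM with Trps1 siRNA and 3.28 and 3.47 CPM with Negative siRNA (edgeR adjusted p = 0.000697). Npas2 rose by 0.71 and Arntl, the core clock activator that REV-ERB proteins repress, by 0.41 on the log2 scale. Clock, the partner of Arntl, fell by 0.38 and Dbp, another output factor, by 0.33. The calls of Hlf and Clock held with each library left out. That of Npas2 was lost without sample 1 of either group (adjusted p = 0.0671 for Trps1 siRNA and 0.0912 for Negative siRNA), and those of Arntl and Dbp without Trps1 siRNA sample 2 (adjusted p = 0.242 and 0.0976) or Negative siRNA sample 1 (adjusted p = 0.106 and 0.208). With DESeq2 the calls of Npas2, Arntl and Dbp were lost as well (adjusted p = 0.115, 0.137 and 0.0999). Dbp and Nr1d1 share exon sequence with opposite-strand genes, Sphk2 and Thra.

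The retinoic acid, thyroid hormone and vitamin D receptors were all tested, 5 of the 6 were expressed, and edgeR and voom called 0 of them, with 0 at an unadjusted p under 0.05 in edgeR. DESeq2 also called 0, and gave Vdr and Rarb no adjusted p. RAR alpha (Rara) had 61.9 and 65.0 CPM with Trps1 siRNA and 59.6 and 62.5 CPM with Negative siRNA (log2 fold change 0.06, 95% interval -0.09 to 0.20). RAR gamma (Rarg) had a log2 fold change of 0.09 (-0.10 to 0.28), thyroid hormone receptor alpha (Thra) one of -0.04 (-0.22 to 0.13) and thyroid hormone receptor beta (Thrb) one of -0.01 (-0.21 to 0.18). Of these 4 intervals, that of Rarg alone reaches the size of the Nr3c1 change, and on the higher side. RAR beta (Rarb) and the vitamin D receptor (Vdr), with 11 to 29 reads a library, had intervals from -0.90 to 1.14 and from -0.82 to 1.07, too wide to place. RXR alpha (Rxra) had 165 and 160 CPM with Trps1 siRNA and 157 and 153 CPM with Negative siRNA (log2 fold change 0.07, 95% interval -0.05 to 0.19). RXR beta (Rxrb) had a log2 fold change of 0.03 (-0.12 to 0.19), and Rxrg had 15 reads in all.

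Of 9 retinoic acid targets 5 were tested, 1 rose and 1 fell. Cyp26b1, the enzyme that clears retinoic acid, had 37.3 and 37.0 CPM with Trps1 siRNA and 21.6 and 22.1 CPM with Negative siRNA (log2 fold change 0.77 ± 0.09, edgeR adjusted p = 1.25e-06). Dhrs3 and Tgm2 did not pass the test. Of 6 thyroid hormone targets 1 of 5 tested rose, Thrsp, by 0.33 on the log2 scale, a call lost without Trps1 siRNA sample 1 or 2 (adjusted p = 0.0588 and 0.0853) or Negative siRNA sample 1 (adjusted p = 0.305) and with DESeq2 (0.0997). Klf9, Hr and Dio3 had log2 fold changes of -0.055, -0.13 and -0.07.

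Of the 13 remaining orphan receptors, 8 were tested, and edgeR called 0 of them, with 2 at an unadjusted p under 0.05. DESeq2 and voom also called 0, and DESeq2 gave Nr2f1 no adjusted p. However, edgeR called Nr2f6 lower without the low-count filter and with a mean of at least 5 CPM. With the replicate block it called Nr2f6 and Nr2f2 lower. COUP-TFII (Nr2f2) had 125 and 143 CPM with Trps1 siRNA and 143 and 155 CPM with Negative siRNA (log2 fold change -0.15 ± 0.06, edgeR adjusted p = 0.133). Its groups lay next to each other without overlap, at 142.5 CPM for the higher Trps1 siRNA library and 142.9 CPM for the lower Negative siRNA library, and without Trps1 siRNA sample 2 the log2 fold change was -0.25 (adjusted p = 0.0262). EAR2 (Nr2f6) had 35.4 and 39.2 CPM with Trps1 siRNA and 46.3 and 41.9 CPM with Negative siRNA (log2 fold change -0.24 ± 0.08, edgeR adjusted p = 0.0666), and passed without Negative siRNA sample 2 (-0.31, adjusted p = 0.047). ERR alpha (Esrra), a regulator of mitochondrial genes, had 38.1 and 37.8 CPM with Trps1 siRNA and 42.2 and 42.1 CPM with Negative siRNA (-0.15 ± 0.08). ERR gamma (Esrrg), TR2 (Nr2c1) and TR4 (Nr2c2) had log2 fold changes of 0.19, 0.12 and -0.19, none past the test. GCNF (Nr6a1), known from germ cells, had 2.57 and 2.02 CPM with Trps1 siRNA and 2.44 and 2.15 CPM with Negative siRNA, and COUP-TFI (Nr2f1) at most 16 reads a library. Hnf4a and Esrrb had 6 reads or fewer in each library. Of 9 ERR targets 1 rose, Acadm, also listed as a PPAR target, and the others, among them Cycs, Sdhb and Cox5a, did not pass the test. Among expressed receptors, 9 share exon sequence with another annotated gene, among them Nr1d1 with Thra, Nr2f6 with Ocel1, Nr2f2, Esrra, Rora and Nr1h3, and the strand setting of the counting is not known.

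Corepressors of nuclear receptors rose in 5 of 12 genes and fell in none, while 7 missed the threshold. The share called was 41.7%, against 11.2% of all tested genes. Shares were 63.6% for SF-1 targets, 40.0% each for LXR and retinoic acid targets, and 35.7% for clock genes. PPAR and glucocorticoid receptor targets each had 33.3%, thyroid hormone targets 20.0%, coactivators 14.3% and ERR targets 11.1%. All these lists were chosen with earlier results of these data known. The tested genes reach down to the filter of 0.479 CPM, whereas the corepressors other than Lcor averaged 31.8 to 448 CPM. Small changes pass the test more readily at such levels, and shares at matched levels were not compared. The median log2 fold change of the corepressors was 0.20, and 11 of the 12 values were positive. The 5 corepressors that rose were Hdac3, Tbl1x and Tbl1xr1, which belong to the complex built on NCoR, the scaffold Sin3a, and Rcor1 of the CoREST complex. Hdac3, a histone deacetylase, had 102 and 94.6 CPM with Trps1 siRNA and 85.3 and 84.3 CPM with Negative siRNA (log2 fold change 0.21 ± 0.06, edgeR adjusted p = 0.0238). Sin3a had the smallest p, with 63.4 and 57.1 CPM with Trps1 siRNA and 49.2 and 49.8 CPM with Negative siRNA (0.28 ± 0.08, edgeR adjusted p = 0.0135), and overlaps annotated genes on the opposite strand. Ncor1, which encodes NCoR itself, had a log2 fold change of 0.05. These changes were small. The number of corepressors called higher was 0 with DESeq2 and 2 with voom. Of 12 alternative fits, Sin3a kept its call in 9, Hdac3 in 8, Tbl1x and Tbl1xr1 in 6 each and Rcor1 in 5. The lowest log2 fold changes in these fits were 0.206, 0.156, 0.118, 0.117 and 0.199, in the same order.

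Of 15 coactivators 14 were tested, none rose and 2 fell, with a median log2 fold change of 0.003. Ncoa7, an oestrogen receptor coactivator that interferon induces, had 26.8 and 32.5 CPM with Trps1 siRNA and 49.2 and 50.8 CPM with Negative siRNA (log2 fold change -0.75 ± 0.09, edgeR adjusted p = 1.68e-06), and it shares exon sequence with Hint3 on the same strand. Brd8, a bromodomain protein first found as a thyroid hormone receptor coactivator, had 27.3 and 28.8 CPM with Trps1 siRNA and 38.2 and 35.3 CPM with Negative siRNA (-0.39 ± 0.09, edgeR adjusted p = 0.00365). Both calls held in all 12 alternative fits. The p160 coactivators Ncoa1, Ncoa2 and Ncoa3 had log2 fold changes of 0.02, 0.004 and 0.18, and Crebbp and Ep300, the acetyltransferases they recruit, 0.22 and 0.17, none past the test. Ppargc1a, the coactivator of PPAR and ERR genes in other tissues, stayed at or below 0.149 CPM.

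**Figure D4:**
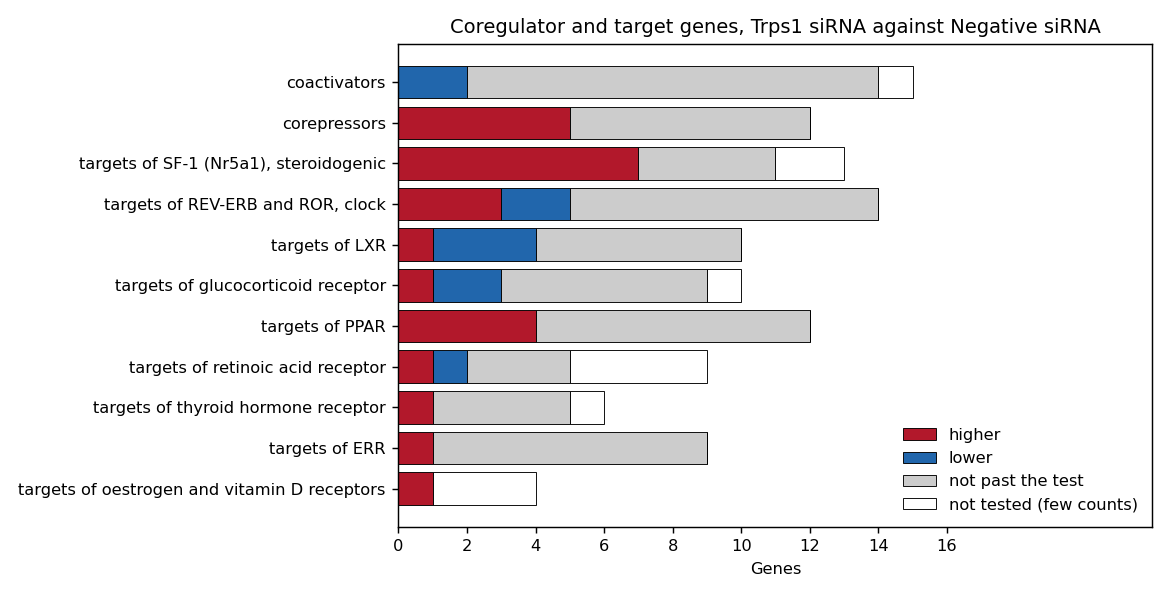
Number of genes in each coregulator and target list that were higher, lower or not past the test with Trps1 siRNA against Negative siRNA, or not tested. SF-1 targets (7 of 13 higher) and corepressors (5 of 12 higher) have the most genes in a single direction.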

How the data were processed

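RNA of 4 samples was sequenced, and the authors deposited unnormalised counts for each gene and sample. HISAT2, featureCounts and GRCm38 (mm10) were used, per the submitters' processing notes. No source used here gives their versions, the strand setting or how multi-mapping reads were handled. A second table from the authors lists 780 genes with mean signal per group, log2 fold changes and p-values, whose test is not given. Only their log2 fold change and adjusted p-value of Nr5a1 are printed. Symbols, positions and exon lengths came from GENCODE M21 (GRCm38), which named 55141 features, and 411 features had no Ensembl identifier.

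Counts were tested with edgeR 4.0.16 (R 4.3.3), with TMM, filterByExpr with a minimum count of 10, which here asked for 0.479 CPM in 2 libraries, and glmQLFit with robust estimation, with the group as the only term and 2 residual degrees of freedom. Genes were called at a Benjamini-Hochberg adjusted p under 0.05. Standard errors were derived from the log2 fold change and its F statistic, and 95% intervals use the moderated degrees of freedom. TPM used merged exon lengths, which overstate the length of genes with many isoforms. DESeq2 1.42.0 and limma 3.58.1 (voom) were alternatives.

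The receptors were set by a list of symbols, and they and the coregulator, target and marker lists were chosen with earlier results of these data known. Named were all 46 receptors, Trps1 and up to 4 genes of each list with the smallest p; further list genes, and the Nr0b2 promoter window, were chosen after their values were seen. The libraries of 17844125 to 25852898 counts limit what can be seen of receptors with few reads. Some genes counted in these lists are not reported by name here.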

Additional observations from a re-analysis of the deposited data

How the results depend on the processing

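The tested receptors were refitted under 12 alternatives. Nr6a1 was below the filter on a mean of at least 5 CPM, as were Pparg, Nr4a3, Nr4a2, Nr1i2, Vdr, Rarb and Nr2f1, which DESeq2 also gave no adjusted p. Nr5a1 and Ppara kept their calls in all of them. Between 2 and 3 receptors were called higher in each. The number called lower was 0 with library totals alone, DESeq2, voom and no robust estimation, 3 without the low-count filter and with a mean of at least 5 CPM, 4 with the replicate block, and 0 to 2 with a library left out. Over all genes 1652 were called, 914 with DESeq2, and 871 (without Trps1 siRNA sample 2) to 1675 with a library left out. Over the coregulator and target lists together, 24 genes were called higher, 12 with DESeq2 and 13 to 21 with a library left out, and 10 lower, 6 to 11 with a library left out. The cause of these moves was not tested. Several receptors changed sign, all without a call. Nr1h2 was 0.006 and Nr4a2 0.013 with library totals alone, Nr6a1 -0.008 without the filter, -0.006 with voom and -0.004 with the replicate block, and Vdr -0.047 with voom. With a library left out, the ranges were -0.095 to 0.076 for Nr1h2, -0.125 to 0.034 for Thra, -0.035 to 0.002 for Thrb, -0.057 to 0.956 for Nr4a3, -0.868 to 0.478 for Nr4a2, -0.175 to 0.17 for Nr6a1, -0.72 to 0.712 for Vdr, -0.095 to 0.415 for Rarb and -0.204 to 3.351 for Nr2f1.

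Sample numbers are shared between the groups, but no label says that they pair samples. Deviations of same-numbered samples correlated at 0.0165 across genes. With the replicate block 2285 genes were called in place of 1652. In the receptor list it also called Nr1d1, Nr2f6 and Nr2f2. As only 2 samples stand in each group, the fit with the replicate block and those with a library left out have 1 residual degree of freedom. Fits with a library left out also assume that the lone sample varies like the other group. The 5 tested receptors with fewer than 30 reads in every library had standard errors of 0.46 to 0.75 on the log2 scale.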
